A study of Homo sapiens with 18 samples.

Results

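The genes described here are 41 genes of the actin cytoskeleton and of focal adhesions, taken by their symbols from 26485 listed genes. They were actin isoforms, myosin II subunits and a myosin light chain kinase, tropomyosins, calponins, filament crosslinkers, proteins that build filaments, plaque proteins of focal adhesions, LIM and PDZ-LIM proteins, large scaffold proteins and the transcription factor SRF. Their poly(A) RNA was sequenced in 18 libraries of PANC-1 cells, an epithelial line derived from a human pancreatic ductal carcinoma. RNA was taken 72 h after transfection of a control siRNA or of either siRNA against PKR (PKR siRNA 1 and PKR siRNA 2), or 72 h after addition of DMSO, the solvent, or of the small-molecule PKR inhibitor C16 at 400 nM or 800 nM. PKR is the double-stranded RNA-activated kinase whose gene is EIF2AK2. There were 6 groups of 3 libraries. All groups shared the one cell line. The DMSO and C16 libraries were labelled with another run than the siRNA libraries and stood in another normalized table. The labels do not say what a run was. Run and kind of treatment therefore cannot be told apart, and levels were compared only within a table.

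Actin monomers assemble into filaments that myosin II pulls together into contractile bundles, the stress fibres. The bundles end at focal adhesions, where talin and vinculin link them to integrins and where zyxin and paxillin gather. Free actin monomers hold the coactivators MRTFA and MRTFB outside the nucleus, and when monomers are used up these coactivators join SRF on DNA at the CArG box, a short motif found near many genes of the same cytoskeleton.

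EIF2AK2 held 97.4 ± 5.21 normalized counts with control siRNA, 11.1 ± 2.19 after PKR siRNA 1 and 8.65 ± 0.726 after PKR siRNA 2 (SD, n = 3 each), so the knockdown was present in all 6 PKR siRNA libraries. In the C16 table, EIF2AK2 held 49.8 ± 4.2 with DMSO, 42.5 ± 3.26 at 400 nM and 49.9 ± 1.38 at 800 nM (SD, n = 3 each). Reads on genes numbered 1512940 to 1873906 per library in the siRNA table and 894145 to 1474308 in the C16 table. The sum of 6 epithelial markers (KRT7, KRT8, KRT18, KRT19, EPCAM and CDH1) ran from 3052 to 10233 normalized counts, with 5358 to 5451 in the control siRNA, 3052 to 3280 in the PKR siRNA 1 and 9586 to 10233 in the PKR siRNA 2 libraries. It was 7171 to 7572 with DMSO, 6033 to 6544 at 400 nM C16 and 5172 to 5685 at 800 nM, while EPCAM stood at 17.8 ± 1.83, 25.7 ± 6.13 and 30.3 ± 1.84 (SD, n = 3 each). The part of these markers in the results below was not tested. KRT8, KRT18 and KRT19 made up nearly all of it, and not every marker followed the sum. EPCAM held 103 ± 18.6 normalized counts with control siRNA, 12.3 ± 1.96 after PKR siRNA 1 and 10.7 ± 1.27 after PKR siRNA 2 (SD, n = 3 each). KRT7 went from 18.2 ± 2.83 in the controls to 4.64 ± 2.38 after PKR siRNA 2, where the sum was highest. The sum of 6 muscle markers stayed at or under 14.6 normalized counts, that of 3 leukocyte markers at or under 4.86 and that of 3 endothelial markers at or under 1.07, so the contractile genes below were measured in cultures with few muscle transcripts. Fewer cells of a kind and less RNA per cell cannot be told apart in such bulk libraries. Nothing in the sources states that the replicates were separate cultures, so p-values describe the spread between libraries.

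The DMSO libraries differed by transcript length, most of all library 3. Against the other 2 DMSO libraries the values of library 3 had a median log2 ratio of -0.09 over genes of up to 2 kb of exon, 0.07 over those of 5 to 10 kb and 0.18 over those of more than 10 kb. Library 1 went the other way, at 0.07, -0.07 and -0.13, and each ratio depends on the other 2 libraries. Of the 39 members tested in this table, 12 were over 7 kb, and 9 of these were higher in library 3, with a median log2 ratio of 0.26. The highest of them were AHNAK2 at 0.63, AHNAK at 0.50, FLNC at 0.50 and FLNA at 0.35. Of the 27 shorter members, 11 were higher, with a median of -0.04. The part of this pattern in the C16 comparisons was not tested further than by leaving 1 library out. Values without library 3 stand below beside the long members that they moved most.

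**Figure D1:**
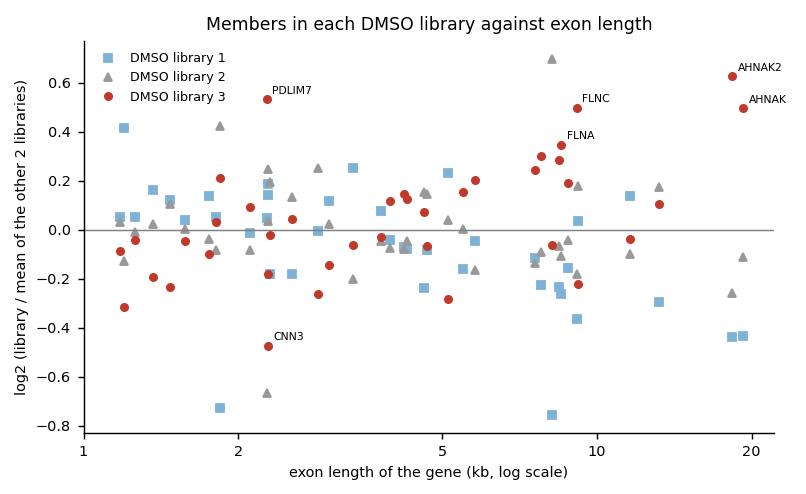
Each point is 1 member in 1 DMSO library; the horizontal axis is the exon length of the gene in kb on a log scale, and the vertical axis is the log2 ratio of the library to the mean of the other 2 DMSO libraries. Library 3 lay above 0 for 9 of the 12 members over 7 kb and reached 0.63 at AHNAK2, while 11 of the 27 shorter members were above 0 in it.

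In each comparison a gene was called changed when its adjusted p was under 0.05 (limma, Benjamini-Hochberg over all tested genes of the table) and its fold change over 1.5. TAGLN was at or under 9.57 normalized counts in every library and was tested in neither table. CALD1 was tested in the siRNA table only. After PKR siRNA 1, 3 of 40 tested members rose (7.5%) and 7 fell (17.5%), where over all 10593 tested genes 8.53% rose and 12.6% fell. After PKR siRNA 2, 2 of 40 rose (5.0%) and 12 fell (30%), against 10.8% and 12.8% of all genes. The median log2 fold change of the members was -0.06 after PKR siRNA 1 and -0.25 after PKR siRNA 2, and that of all tested genes was -0.01 in each. Set directly against PKR siRNA 1, PKR siRNA 2 had 3 of 40 members higher and 14 lower (35.0%), where 16.4% and 15.3% of all genes were higher and lower.

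C16 at 400 nM raised 5 of 39 tested members (12.8%) and lowered 0, where 7.08% of all 9963 tested genes rose and 5.45% fell. The 0 is the limma count, and edgeR and DESeq2 on recovered reads also gave 0. It includes the fold limit: at an adjusted p under 0.05 alone, 4 members lay lower at 400 nM, and 5 at an unadjusted p under 0.05. At 800 nM, 6 of 39 members rose (15.4%) and 4 fell (10.3%), against 11.6% and 14.1% of all genes. The median log2 fold change of the members was 0.22 at 400 nM and 0.02 at 800 nM, beside 0.00 for all tested genes at each dose. Between the doses, 0 members were higher at 800 nM by limma, edgeR and DESeq2, with 1 at an unadjusted p under 0.05, and 3 were lower (7.69%), where 1.13% of all genes were higher and 3.95% lower. In all, 21 members were called in at least 1 of the 4 comparisons with a control and 19 were tested and called in none. The matching share of all tested genes, called in at least 1 of these 4 comparisons, was not counted. Whether 21 members is more than among other genes was therefore not tested. AKAP12 and ZYX were called in all 4, and ENAH and LIMA1 in 3.

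**Figure D2:**
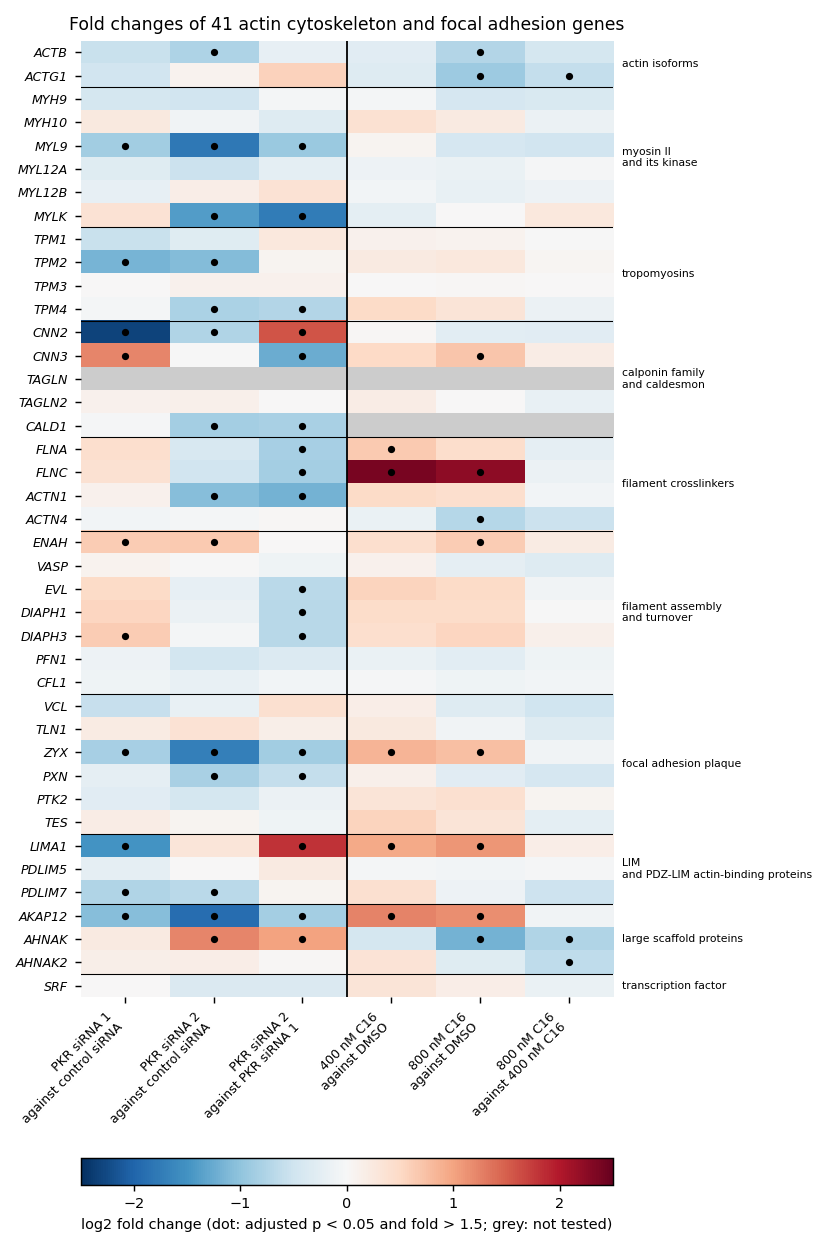
Rows are the 41 members in role groups and columns the 6 comparisons; colour is the log2 fold change, a dot marks an adjusted p under 0.05 with a fold change over 1.5, and grey was not tested. AKAP12 and ZYX carry a dot in blue with both PKR siRNAs and in red with both doses of C16, and the deepest blue and red are CNN2 after PKR siRNA 1 at -2.32 and FLNC at 400 nM C16 at 2.38.

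As a share of all reads on genes, the 41 members took 3.32% ± 0.0633 with control siRNA, 2.88% ± 0.0751 after PKR siRNA 1 and 3.01% ± 0.0383 after PKR siRNA 2 (SD, n = 3 each). In the other table they took 2.70% ± 0.188 with DMSO, 2.74% ± 0.0597 at 400 nM C16 and 2.23% ± 0.0458 at 800 nM (SD, n = 3 each). The share was lower in every PKR siRNA library than in any control siRNA library, and lower in every 800 nM library than in any other library of its table. Per kb of exon, the most abundant members with control siRNA were ACTB at 4341 normalized counts per kb, ACTG1 at 2768, CFL1 at 1972, ACTN4 at 1512 and PFN1 at 1209. The least abundant were MYLK at 4.41, CALD1 at 3.48 and TAGLN at 2.39 normalized counts per kb.

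SRF, the transcription factor that binds the CArG box, was itself called in no comparison. It held 148, 155 and 152 normalized counts with control siRNA, 144, 146 and 165 after PKR siRNA 1 and 99.5, 133 and 122 after PKR siRNA 2. The PKR siRNA 2 libraries lay below all controls, with a log2 fold change of -0.36 (standard error 0.11) that did not reach 1.5-fold. With DMSO it held 109, 110 and 120, at 400 nM C16 149, 142 and 136, and at 800 nM 116, 135 and 130. The 400 nM libraries lay above DMSO by a log2 difference of 0.33 (standard error 0.11), and the 800 nM libraries overlapped DMSO. Of its coactivators, MKL1 (the files' symbol for MRTFA) was called nowhere, and MKL2 (MRTFB) is given with the other actin regulators below.

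RefSeq promoter windows of GRCh38.p14, from 250 bases before to 50 bases after a start, were matched for 37 of the 41 members; ACTB, MYL9, PTK2 and TAGLN were not matched. A CArG box, searched as its 10-letter palindromic motif, stood in the windows of 7 of these 37 members (18.9%) and of 351 of all 27305 windows (1.29%). The TEAD motif GGAATG, on either strand, stood in 9 of 37 members (24.3%) and in 14.0% of all windows, and the AP-1 motif TGANTCA in 2 of 37 (5.41%, ACTN4 and TAGLN2) and in 7.76%. The CArG boxes are shown because they name the members that carry the motif of the factor on the list. Each line gives 30 bases, 5′ to 3′ on the strand of the gene, with the box in capitals between 10 bases on either side.
ACTG1: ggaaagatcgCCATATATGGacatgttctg
AKAP12: cgtgaggtgcCCAAATATGGtcggactcag
CNN2: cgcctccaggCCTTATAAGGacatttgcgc
FLNA: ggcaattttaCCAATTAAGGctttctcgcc
MYLK: ataaaccatcCCTTTTATGGgagttgaagc
SRF, box 1: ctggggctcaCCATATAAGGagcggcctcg
SRF, box 2: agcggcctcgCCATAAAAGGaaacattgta
TPM4: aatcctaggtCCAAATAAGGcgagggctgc

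The stretch of ACTG1 lies at chr17:81512874-81512903 on the minus strand, that of AKAP12 at chr6:151239876-151239905 on the plus strand and that of CNN2 at chr19:1026509-1026538 on the plus strand. The stretch of FLNA lies at chrX:154374709-154374738 on the minus strand and that of TPM4 at chr19:16067355-16067384 on the plus strand. The stretch of MYLK, at chr3:123620623-123620652 on the minus strand, belongs to a start inside the listed span of the gene, which runs from 123612296 to 123884302. On this strand the gene begins at 123884302, so this start lies near its 3′ end and far from the first listed exon. Counts by gene do not part transcripts of this start from the rest of MYLK. The stretch of CNN2 also lies inside the listed span of its gene, which begins at 1026275 on the plus strand. The boxes of SRF lie in chr6:43171229-43171258 and chr6:43171249-43171278 on the plus strand. In 4 members (ACTG1, CNN2, FLNA and MYLK) the first base of the box stood 89 to 94 bases before the RefSeq start, in AKAP12 81, in TPM4 173 and in SRF 30 and 10. Calls of the 7 carriers differed between comparisons. After PKR siRNA 1, AKAP12 and CNN2 fell and the other 5 were not called. After PKR siRNA 2, AKAP12, MYLK, TPM4 and CNN2 fell and ACTG1, FLNA and SRF were not called. Of all tested members 17.5% and 30% fell after these siRNAs, and of all tested genes 12.6% and 12.8%. With 400 nM C16 AKAP12 and FLNA rose and the other 5 were not called, where 12.8% of members and 7.08% of all genes rose. At 800 nM AKAP12 rose and ACTG1 fell, where 15.4% and 10.3% of members and 11.6% and 14.1% of all genes rose and fell. Whether carriers differ from other members was not tested. A match is a description of letters and was not tested as a site of binding.

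AKAP12 is a large scaffold that anchors protein kinases A and C at the cell cortex. It held 6435, 6476 and 6193 normalized counts with control siRNA, 3011, 3037 and 3114 after PKR siRNA 1 and 1729, 1660 and 1714 after PKR siRNA 2. No library of 1 group came near another group, and PKR siRNA 2 lay lowest. The log2 fold change was -1.06 (standard error 0.04) after PKR siRNA 1 and -1.90 (standard error 0.04) after PKR siRNA 2, adjusted p = 1.59e-37 and 6.67e-55 (limma, Benjamini-Hochberg). The siRNAs differed from each other by -0.84 (standard error 0.04). With C16 the direction was the opposite: AKAP12 held 696, 734 and 815 with DMSO, 1809, 1793 and 1723 at 400 nM and 1614, 1602 and 1774 at 800 nM. Every C16 library lay above every DMSO library, by 1.25 (standard error 0.06) at 400 nM and 1.15 (standard error 0.06) at 800 nM on the log2 scale. The doses differed by -0.10 (95% confidence interval -0.22 to 0.03) and their libraries overlapped. Its 8.79 kb of exon make it one of the longer members, and without the third DMSO library its rises were 1.31 and 1.22.

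AHNAK and AHNAK2, giant proteins of the cortex beneath the membrane, did not follow AKAP12. AHNAK held 5030, 5751 and 4884 normalized counts with control siRNA, 5659, 6179 and 6317 after PKR siRNA 1 and 12231, 12172 and 12204 after PKR siRNA 2. The PKR siRNA 2 libraries stood far above the rest, while those of PKR siRNA 1 overlapped the controls. AHNAK rose after PKR siRNA 2 with a log2 fold change of 1.23 (standard error 0.04), and PKR siRNA 2 exceeded PKR siRNA 1 by 1.01 (standard error 0.04). With DMSO it held 4486, 5250 and 6866, at 400 nM C16 3984, 4057 and 4026, and at 800 nM 2268, 2324 and 2614. The DMSO libraries were widely spread and still all above the C16 libraries, and the 800 nM libraries lay below those of 400 nM. AHNAK fell at 800 nM by 1.18 on the log2 scale (standard error 0.07), and without the third DMSO library, the highest, by 1.02. AHNAK2 was called in no comparison with a control, and its values at 400 nM and at 800 nM C16 overlapped those of DMSO, at 838, 915 and 1353. It held 1302, 1326 and 1202 at 400 nM and 811, 791 and 877 at 800 nM, and fell between the doses by 0.63 (standard error 0.08), a comparison that does not use the DMSO libraries. Against DMSO its log2 fold changes were 0.33 at 400 nM and -0.29 at 800 nM, and without the third DMSO library 0.54 and -0.08.

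ZYX, the LIM protein zyxin of focal adhesions and stress fibres, had the same 4 calls as AKAP12. It held 513, 519 and 476 normalized counts with control siRNA, 255, 327 and 267 after PKR siRNA 1 and 153, 142 and 165 after PKR siRNA 2. The groups did not overlap, and PKR siRNA 2 was lowest. ZYX fell by 0.83 on the log2 scale (standard error 0.08) after PKR siRNA 1 and by 1.71 (standard error 0.08) after PKR siRNA 2, adjusted p = 3.34e-14 and 9.97e-31 (limma, Benjamini-Hochberg). With DMSO it held 108, 129 and 117, at 400 nM C16 185, 225 and 229 and at 800 nM 188, 208 and 202. All C16 libraries lay above all DMSO libraries, by 0.85 (standard error 0.10) at 400 nM and 0.76 (standard error 0.10) at 800 nM, and the doses overlapped each other.

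The other plaque proteins moved less. PXN, the adaptor paxillin, held 1259, 1253 and 1301 normalized counts with control siRNA, 1082, 1112 and 1069 after PKR siRNA 1 and 705, 725 and 733 after PKR siRNA 2, and fell after PKR siRNA 2 by 0.82 on the log2 scale (standard error 0.05). Its groups did not overlap, and the PKR siRNA 1 libraries lay between, at -0.22 against control. The difference between the siRNAs, -0.59, fell short of 1.5-fold without library 2 of PKR siRNA 1 or library 1 of PKR siRNA 2, at -0.58 in each. An antisense gene, PXN-AS1, shares 4.89% of its exon bases, and since a strand setting for counting is not given in the sources used here its reads cannot be told apart from those of PXN. VCL, the linker vinculin, held 1475 ± 43.7 with control siRNA and 984 ± 40.2 after PKR siRNA 1 (SD, n = 3 each). All 3 PKR siRNA 1 libraries lay below the controls, and the log2 fold change of -0.58 stayed just under the 1.5-fold limit; it passed it without the third control library, at -0.60, or without library 2 or 3 of PKR siRNA 1, at -0.59 and -0.61. TLN1, the integrin activator talin, ranged from -0.08 to 0.35 in the 4 comparisons with a control, and its -0.08 at 800 nM C16 was 0.02 without the third DMSO library. The kinase gene PTK2, which encodes FAK, ranged from -0.43 to 0.39. TES, the LIM protein testin, had its largest difference at 400 nM C16, with 151, 155 and 134 against 99.1, 111 and 87.6 with DMSO and a log2 fold change of 0.56. It exceeded 1.5-fold only without DMSO library 2 or library 3 of 400 nM, at 0.65 and 0.62.

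LIMA1, the filament-stabilizing protein EPLIN, separated the siRNAs more than any other member. It held 280.3, 284 and 305 normalized counts with control siRNA, 101, 91.6 and 113 after PKR siRNA 1 and 368, 350 and 359 after PKR siRNA 2. The PKR siRNA 1 libraries lay far below the controls and those of PKR siRNA 2 above them. It fell after PKR siRNA 1 by 1.5 on the log2 scale (standard error 0.09), was not called after PKR siRNA 2 at 0.31 (standard error 0.09), and differed between the siRNAs by 1.81 (standard error 0.09, adjusted p = 5.74e-31, limma, Benjamini-Hochberg). C16 raised it, from 154, 186 and 179 with DMSO to 314, 341 and 342 at 400 nM and 353, 350 and 424 at 800 nM. No C16 library overlapped DMSO, and the log2 fold changes were 0.94 and 1.11 (standard error 0.09 each). PDLIM7, a PDZ-LIM protein of stress fibres, fell with both siRNAs, from 106, 98.8 and 98.6 to 46.7, 63.5 and 71.4 after PKR siRNA 1 and to 69.6, 50.4 and 69.6 after PKR siRNA 2. The log2 fold changes were -0.75 and -0.68 (standard error 0.15 each), and each rested on 1 library for passing 1.5-fold: they were -0.58 without library 1 of PKR siRNA 1 and -0.53 without library 2 of PKR siRNA 2. Its 30.5 to 54.1 normalized counts with DMSO overlapped both doses. PDLIM5, a relative that tethers kinases to alpha-actinin, was between -0.22 and 0.00 in the 4 comparisons.

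**Figure D3:**
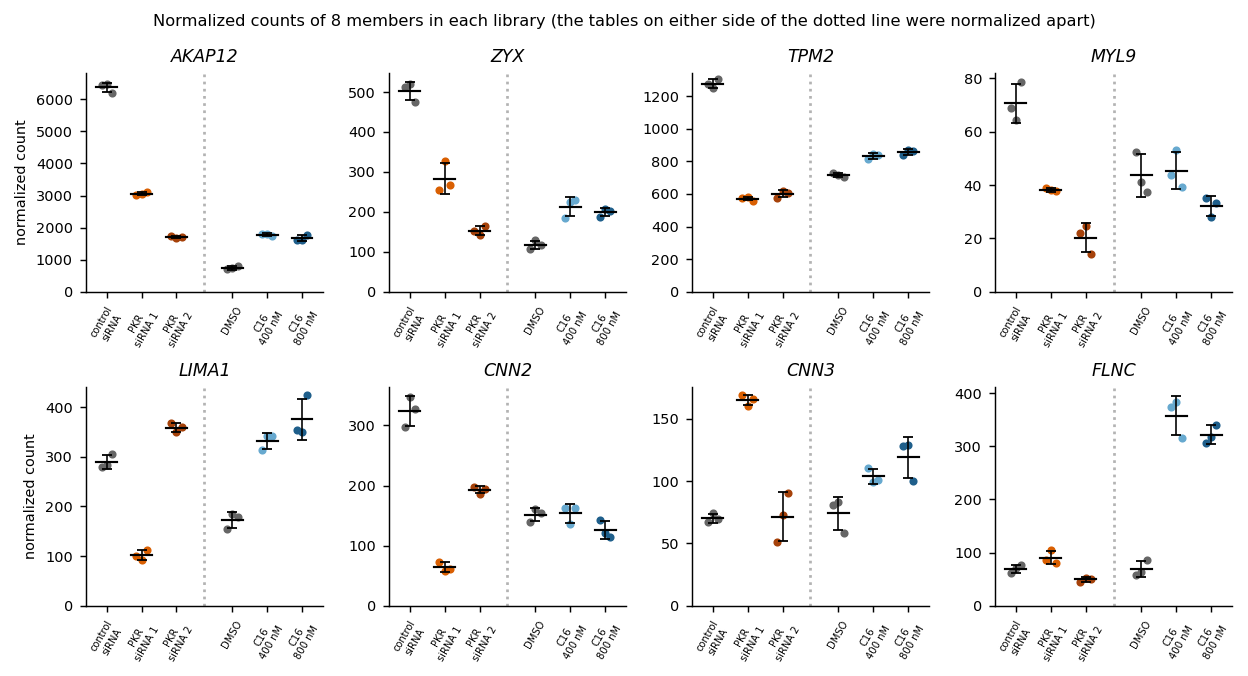
Normalized counts of 8 members in each of the 18 libraries; points are libraries, horizontal bars the group means and error bars the SD (n = 3), and the dotted line parts the siRNA table from the C16 table, which were normalized apart. AKAP12 and ZYX are lower with both PKR siRNAs and higher with both doses of C16, LIMA1 and CNN2 are lowest after PKR siRNA 1, and FLNC stands at 307 to 383 in the C16 libraries against 57.3 to 85.3 with DMSO.

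Both cytoplasmic actins were lower at 800 nM C16. ACTB, the beta isoform, held 2677, 2511 and 2648 normalized counts with DMSO, 2152, 2271 and 2016 at 400 nM and 1574, 1568 and 1580 at 800 nM. The groups stepped down with dose without overlap. It fell at 800 nM by 0.73 on the log2 scale (standard error 0.05), and the difference at 400 nM was -0.28, under the 1.5-fold limit. ACTG1, the gamma isoform, held 3616, 3502 and 3795 with DMSO, 2919, 3070 and 2783 at 400 nM and 1855, 2027 and 1961 at 800 nM, and fell at 800 nM by 0.90 (standard error 0.05, adjusted p = 3.38e-22, limma, Benjamini-Hochberg). It was also lower at 800 nM than at 400 nM by 0.59, a value at the 1.5-fold limit that dropped under it without library 2 of 400 nM or library 1 of 800 nM, at -0.55 each.

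With the siRNAs the actins parted. ACTB held 7903, 7938 and 7759 normalized counts with control siRNA, 5359, 5524 and 5152 after PKR siRNA 1 and 4684, 4452 and 4752 after PKR siRNA 2. Every PKR siRNA library lay below every control, with a log2 fold change of -0.56 (standard error 0.04) for PKR siRNA 1, short of 1.5-fold, and a fall of 0.77 (standard error 0.04) for PKR siRNA 2. ACTG1 held 5840, 5769 and 5871 with control siRNA, 4112, 4392 and 4059 after PKR siRNA 1 and 6142, 6076 and 6424 after PKR siRNA 2. It lay below the controls after PKR siRNA 1, at -0.48, and slightly above them after PKR siRNA 2, at 0.09. The siRNAs differed in ACTG1 by 0.57 (standard error 0.04), which passed 1.5-fold only without library 2 of either PKR siRNA, at 0.60 and 0.59. GENCODE 44 lists 12 pseudogenes named after ACTB and 21 after ACTG1, and reads from such near-identical copies are uncertain.

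**Figure D4:**
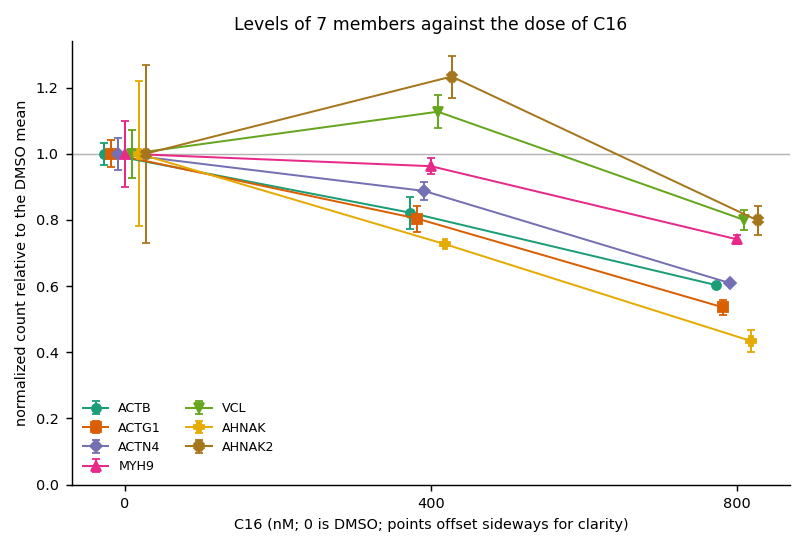
Normalized counts of 7 members relative to their DMSO mean (vertical axis) against the dose of C16 in nM (horizontal axis, 0 is DMSO); points are means and error bars the SD of 3 libraries. ACTB, ACTG1, ACTN4 and AHNAK step down over both doses, MYH9 is lower at 800 nM, and VCL and AHNAK2 lie above DMSO at 400 nM and below it at 800 nM, with AHNAK2 libraries overlapping DMSO at both doses.

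Of the myosin II genes, the regulatory light chain MYL9 changed most. It held 68.8, 64.5 and 78.7 normalized counts with control siRNA, 38.9, 38.1 and 37.6 after PKR siRNA 1 and 21.9, 24.7 and 14.1 after PKR siRNA 2. The groups stepped down without overlap, with a log2 fold change of -0.87 and -1.79 (standard error 0.19 each). With DMSO, 400 nM and 800 nM C16 it held 43.6 ± 7.91, 45.3 ± 7.00 and 32.2 ± 3.77 (SD, n = 3 each) and was not called. MYLK, the kinase that phosphorylates this light chain, held 37.0, 33.3 and 37.9 with control siRNA, 47.8, 45.4 and 46.3 after PKR siRNA 1 and 10.9, 12.9 and 16.0 after PKR siRNA 2. It fell after PKR siRNA 2 by 1.39 on the log2 scale (standard error 0.22) and differed between the siRNAs by -1.75 (standard error 0.22). At 7.77 to 16.2 normalized counts in the C16 table it was too low for a finer comparison, with standard errors of 0.34.

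The heavy chain MYH9 held 3601 ± 138 normalized counts with control siRNA, 2664 ± 121 after PKR siRNA 1 and 2576 ± 62.4 after PKR siRNA 2 (SD, n = 3 each). All PKR siRNA libraries lay below the controls, at -0.44 and -0.48, under 1.5-fold. At 800 nM C16 MYH9 was -0.43 against DMSO, and -0.35 without the third DMSO library. MYH10, the other non-muscle heavy chain measured, ranged from -0.09 to 0.37 in the 4 comparisons, and without that library was 0.47 at 400 nM and 0.33 at 800 nM. The light chains MYL12A and MYL12B, near-identical neighbours on chromosome 18, ranged from -0.54 to 0.16, and had 6.31% and 10.6% of their exon bases covered by a gene of the other strand.

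TPM2 was the tropomyosin, a family of coiled coils that run along the filament, that fell with both siRNAs. It held 1276, 1252 and 1304 normalized counts with control siRNA, 576, 580 and 559 after PKR siRNA 1 and 576, 618 and 608 after PKR siRNA 2. The PKR siRNA groups overlapped each other and lay far below the controls, by -1.16 and -1.09 on the log2 scale (standard error 0.06 each). The siRNAs differed by 0.07 (95% confidence interval -0.04 to 0.18). With C16 TPM2 was above DMSO in all libraries by 0.22 and 0.26, under 1.5-fold. TPM4 held 599, 627 and 629 with control siRNA, 612, 568 and 611 after PKR siRNA 1 and 357, 357 and 355 after PKR siRNA 2, and fell after PKR siRNA 2 by 0.79 (standard error 0.06). PKR siRNA 1 overlapped the controls, and the siRNAs differed by -0.74 (standard error 0.06). TPM4 was above DMSO in all C16 libraries, by 0.47 and 0.32, and was not called. TPM1 was -0.56 after PKR siRNA 1, short of 1.5-fold, and passed it without library 1 or 3 of control siRNA or library 3 of PKR siRNA 1, at -0.60, -0.59 and -0.65. TPM3 lay between 0.01 and 0.11 in all 4 comparisons.

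The calponins CNN2 and CNN3, which bind along actin and slow myosin, moved in opposite directions after PKR siRNA 1. CNN2 held 298, 347 and 328 normalized counts with control siRNA, 73.3, 58.0 and 61.8 after PKR siRNA 1 and 198, 187 and 195 after PKR siRNA 2. All 3 groups were apart, with the siRNA 1 libraries lowest. It fell by 2.32 on the log2 scale (standard error 0.10, adjusted p = 1.56e-33, limma, Benjamini-Hochberg) after PKR siRNA 1 and by 0.74 (standard error 0.10) after PKR siRNA 2, and the siRNAs differed by 1.58 (standard error 0.10). GENCODE 44 lists 11 pseudogenes named after CNN2. CNN3 held 66.7, 74.1 and 69.2 with control siRNA, 169, 161 and 166 after PKR siRNA 1 and 50.7, 72.9 and 90.3 after PKR siRNA 2. It rose after PKR siRNA 1 by 1.23 (standard error 0.13), while the PKR siRNA 2 libraries spread around the controls.

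In the C16 table CNN2 overlapped DMSO at both doses. CNN3 held 80.6, 82.9 and 58.6 normalized counts with DMSO and 128, 129 and 100 at 800 nM, without overlap. It rose at 800 nM by 0.69 on the log2 scale (standard error 0.13), but without the third DMSO library, its lowest, the value was 0.53 and no longer 1.5-fold. TAGLN2, the abundant calponin relative transgelin 2, lay between 0.00 and 0.18 in all 4 comparisons, and its smooth-muscle relative TAGLN ran from 1.52 to 9.57 normalized counts over the 18 libraries. CALD1, the filament-binding protein caldesmon, held 18.5, 24.7 and 14.2 with control siRNA and 6.96, 15.0 and 9.40 after PKR siRNA 2. These groups overlapped. It fell by 0.84 on the log2 scale (standard error 0.31, adjusted p = 0.0187, limma, Benjamini-Hochberg), and the call was lost without library 1 of PKR siRNA 2 (-0.61), without library 2 of control siRNA (-0.65), with no filter on low values and with DESeq2.

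FLNC, a filamin that crosslinks filaments and is best known from muscle, had the largest rise with C16. It held 57.3, 62.9 and 85.3 normalized counts with DMSO, 373, 383 and 316 at 400 nM and 307, 318 and 341 at 800 nM. No C16 library came near DMSO, and the doses overlapped each other. The log2 fold changes were 2.38 and 2.24 (standard error 0.10 each), adjusted p = 3.56e-27 and 3.41e-26 (limma, Benjamini-Hochberg), and without the third DMSO library, the highest, they were 2.55 and 2.40. The doses differed by -0.15 (standard error 0.10). With the siRNAs FLNC held 61.6, 70.9 and 75.8 in controls, 85.5, 105 and 81.1 after PKR siRNA 1 and 44.8, 52.5 and 50.8 after PKR siRNA 2. PKR siRNA 1 lay above and PKR siRNA 2 below the controls, neither by 1.5-fold (0.37 and -0.48), and the difference between them, -0.86 (standard error 0.15), was called.

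FLNA, the widely expressed filamin, held 1124, 1211 and 1485 normalized counts with DMSO, 1935, 2094 and 1934 at 400 nM C16 and 1707, 1618 and 1806 at 800 nM. All C16 libraries lay above DMSO, and FLNA rose at 400 nM by 0.65 on the log2 scale (standard error 0.06). Without the first DMSO library this was 0.57 and short of 1.5-fold, and without library 3 it was 0.77. At 800 nM it was 0.43, and 0.55 without the third DMSO library. With the siRNAs it stood at 0.43 and -0.40 against control, and differed between them by -0.83 (standard error 0.04).

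The alpha-actinins, which bundle filaments, each changed in 1 comparison with a control. ACTN1 held 738, 856 and 830 normalized counts with control siRNA, 820, 892 and 909 after PKR siRNA 1 and 359, 395 and 396 after PKR siRNA 2. It fell after PKR siRNA 2 by 1.07 on the log2 scale (standard error 0.06), while PKR siRNA 1 overlapped the controls, and the siRNAs differed by -1.19 (standard error 0.06). With C16 it lay above DMSO in all libraries, by 0.48 at 400 nM and 0.41 at 800 nM, and was not called. ACTN4 did not differ beyond 0.08 from control with either siRNA. It held 3386, 3333 and 3644 with DMSO, 3081, 3152 and 2964 at 400 nM C16 and 2092, 2100 and 2115 at 800 nM. The groups stepped down without overlap, and ACTN4 fell at 800 nM by 0.72 (standard error 0.05). CAPN12, on the opposite strand, shares 8.60% of its exon bases, and reads from there cannot be assigned with certainty.

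ENAH, a protein of the Ena/VASP family that protects growing filament ends, was the member that rose in 3 comparisons with a control. It held 250, 277 and 266 normalized counts with control siRNA, 440, 394 and 400 after PKR siRNA 1 and 420, 416 and 408 after PKR siRNA 2. Both PKR siRNA groups lay above the controls and overlapped each other, with log2 fold changes of 0.64 and 0.65 (standard error 0.07 each). At 800 nM C16 it held 416 ± 20.3 (SD, n = 3) against 234, 292 and 283 with DMSO, without overlap, a rise of 0.63 (standard error 0.08) that was 0.53 without the first DMSO library and then short of 1.5-fold, and 0.67 without the third. At 400 nM it was 0.42. ENAH is on a list that the study drew from these libraries, so its direction is not independent evidence. The relatives VASP and EVL were called against no control. VASP lay between -0.22 and 0.11. EVL, at 15.5 to 42.5 normalized counts, was lower after PKR siRNA 2 than after PKR siRNA 1 by 0.68 (standard error 0.22). It passed 1.5-fold upwards against control in 3 comparisons when 1 library was left out, after PKR siRNA 1 without control library 1 (0.66) and with C16 without DMSO library 2 (0.71 at 400 nM and 0.62 at 800 nM), among others.

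Among the formins, which nucleate unbranched filaments, DIAPH3 held 60.6, 35.5 and 53.1 normalized counts with control siRNA, 62.2, 77.1 and 92.6 after PKR siRNA 1 and 58.7, 47.2 and 37.6 after PKR siRNA 2. The lowest library of PKR siRNA 1 was just above the highest control. DIAPH3 rose after PKR siRNA 1 by 0.64 on the log2 scale (standard error 0.17), but by 0.42 without control library 2 and 0.50 without library 3 of PKR siRNA 1, values under 1.5-fold. DIAPH1 held 493 ± 7.46 with control siRNA, 718 ± 44.7 after PKR siRNA 1 and 446 ± 23.3 after PKR siRNA 2 (SD, n = 3 each). It was 0.54 against control after PKR siRNA 1, under 1.5-fold, and the siRNAs differed by -0.69 (standard error 0.06). At 800 nM C16, DIAPH1 was 0.46 and DIAPH3 0.54 against DMSO, and DIAPH3 passed 1.5-fold without DMSO library 1, at 0.62, or library 3 of 800 nM, at 0.66. PFN1, the profilin that hands monomers to formins, lay between -0.45 and -0.12 in the 4 comparisons, and CFL1, the severing protein cofilin, between -0.18 and -0.02. GENCODE 44 lists 10 pseudogenes named after PFN1 and 8 after CFL1.

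A list of 53 other actin regulators, of which 52 were tested, gave the surroundings of the 41. After PKR siRNA 1, 3 rose (5.77%) and 8 fell (15.4%), beside 8.53% and 12.6% of all tested genes, and after PKR siRNA 2, 5 rose (9.62%) and 7 fell (13.5%), beside 10.8% and 12.8%. At 400 nM C16 1 rose (1.92%) and 0 fell, beside 7.08% and 5.45% of all tested genes, and at 800 nM 2 rose (3.85%) and 3 fell (5.77%), beside 11.6% and 14.1%. The median log2 fold change of these 52 was 0.00 after PKR siRNA 1 and -0.26 after PKR siRNA 2. That of the members was -0.06 and -0.25, so the lower median after PKR siRNA 2 was not particular to the 41. At 400 nM and 800 nM C16 the median of the 52 was 0.04 and 0.02, beside 0.22 and 0.02 for the members. RAC1, the GTPase that drives branched actin at the leading edge, rose from 542 ± 8.51 normalized counts to 1251 ± 117 after PKR siRNA 1 and 981 ± 55.4 after PKR siRNA 2 (SD, n = 3 each), by 1.2 and 0.85 on the log2 scale. WASF2, a subunit of the WAVE complex that RAC1 activates, rose with both by 0.67 and 0.76. ARPC3, a subunit of the branching Arp2/3 complex, fell after PKR siRNA 2 from 493 ± 52.1 to 179 ± 25.8 (SD, n = 3 each), by 1.46 on the log2 scale, and was 0.20 after PKR siRNA 1. LPP, a zyxin relative, fell by 0.97 after PKR siRNA 1 and by 0.64 after PKR siRNA 2, the latter short of 1.5-fold without library 1 of PKR siRNA 2 (-0.58).

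MKL2, which encodes the SRF coactivator MRTFB, held 265, 295 and 254 normalized counts with control siRNA, 117, 122 and 116 after PKR siRNA 1 and 150.2, 169 and 174 after PKR siRNA 2. All PKR siRNA libraries lay below the controls, and it fell by 1.19 and 0.72 on the log2 scale (standard error 0.09 each). With DMSO it held 171, 190.5 and 184, at 400 nM C16 132, 110 and 137 and at 800 nM 122, 102 and 104, and fell at 800 nM by 0.73 (standard error 0.11). It too is on a list that the study drew from these libraries. At 800 nM, ARPC5L, another Arp2/3 subunit, rose by 0.75 on the log2 scale and the monomer-binding TMSB4X and the severing protein GSN fell, GSN by 0.71 and TMSB4X by 0.73. The 0 lower at 400 nM was the count by limma, edgeR and DESeq2 alike. It includes the fold limit: 8 of 52 were lower at an adjusted p under 0.05 alone, and 9 at an unadjusted p under 0.05. Between the doses 0 were called in either direction by these tools, where 1.13% of all tested genes were higher and 3.95% lower. There, 4 were higher and 15 lower at an unadjusted p under 0.05, and 3 and 8 at an adjusted p under 0.05.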

How the data were processed

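Per the labels and the study's methods, poly(A) libraries were made with a directional kit, and the authors aligned reads to hg38 (TopHat), assigned them to genes (featureCounts) and scaled each table by TMM in TCC. What they deposited is a scaled signal for every gene, its counts of reads times 1 factor per library; all values were whole multiples of 1 read (100% in each library, tolerance 0.01 reads), so reads were recovered. Software versions, the annotation and the strand setting are not given in the sources used here. Groups came from the sample titles. Members and lists were chosen with earlier results of these data known, and members called in a comparison with a control were given library by library.

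Values were tested as log2(value + 1) with limma 3.58.1 (R 4.3.3, trend, all 9 libraries of a table, genes with a mean of at least 10), with Benjamini-Hochberg adjustment; fold changes are on this scale and understate changes of low genes. Called means adjusted p under 0.05 and fold over 1.5. Leaving a library out, other pseudocounts (0.5, 5) and filters (none, 30), rescalings, a fit of the compared groups alone, a replicate block, edgeR 4.0.16 and DESeq2 1.42.0 on recovered reads were alternatives. Scripts were tested on simulated data. Same-numbered libraries did not deviate together (correlations from -0.05 to 0.03), so the numbers were not used as pairs. Promoters came from RefSeq GRCh38.p14. The values of 1 gene among the other actin regulators, called in several comparisons and counted with the rest, are not reported here.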

Additional observations from a re-analysis of the deposited data

How the results depend on the processing

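Outside leaving out a library, every count of members called was within 1.5 times its main value. In fits that tested the gene, 3 of the 59 calls of members were lost. They were those of ACTG1 between the doses and of CALD1 after PKR siRNA 2 against control and against PKR siRNA 1. A minimum mean of 30 left CALD1 and EVL untested with the siRNAs, so the call of EVL between the siRNAs was not made there. Counting the fits that left out a library, 48 of the 59 held in every fit that tested the gene. No call of a member changed its direction. ACTG1 lost its call between the doses under median-of-ratios rescaling, equal library totals, edgeR and DESeq2 (-0.55 to -0.57), so that 2 members were lower there. With 1 library left out, members higher and lower numbered 2 to 4 and 6 to 9 with PKR siRNA 1, 2 and 11 to 12 with PKR siRNA 2, 3 to 4 and 12 to 14 between the siRNAs, 4 to 7 and 0 at 400 nM C16, 5 to 8 and 4 at 800 nM, and 0 and 2 to 4 between the doses. A replicate block changed no member count, with 3 members up and 7 down for PKR siRNA 1 with and without it; the shared numbers do not pair the libraries. Over all genes, 113 were higher and 394 lower between the doses. DESeq2 gave 51 and 138 there, equal library totals 163 and 335, and a minimum mean of 30 gave 82 and 231. That minimum gave 800 genes down at 800 nM where 1403 had been called, and 296 at 400 nM where 543 had been. With it 7081 genes were tested in place of 9963, and the shares over all genes given above also depend on this limit. CALD1, MYLK and EVL were the tested members with the lowest values, and the part of depth in their calls was not tested. On recovered reads, edgeR called 955 genes up and 1310 down for PKR siRNA 1, 1244 and 1313 for PKR siRNA 2, 697 and 620 for 400 nM C16, and 1229 and 1425 for 800 nM.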
